A study of Mus musculus with 19 samples.

Results

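Cytochrome P450 enzymes of families 1 to 4 were examined in kidneys and livers of male mice that lack the histone variant macroH2A1.1 and of wild-type mice. Members were the protein-coding genes of the count table whose symbol begins with Cyp1, Cyp2, Cyp3 or Cyp4 followed by a subfamily letter and a number, which gave 71 of 26506 genes. Family 1 had 3 of them, family 2 had 45, family 3 had 6 and family 4 had 17. They lay on chromosomes 3, 4, 5, 7, 8, 9, 15, 17 and 19, with 16 on chromosome 4, 14 on chromosome 7 and 14 on chromosome 19. The annotation holds 9 further genes that match the rule and were not analysed here, among them Cyp2b13, Cyp3a16 and Cyp3a41a.

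Knockout (KO) mice were homozygous for a deletion of exon 6b of the macroH2A1 gene H2afy. The deletion was first made with soluble Cre enzyme in zygotes, and passed on through the germ line, and KO and wild-type (WT) mice came from matings of heterozygotes. All mice had been backcrossed to C57BL/6J for at least 10 generations. The labels name a standard and a ketogenic diet without assigning either to a mouse, and they give no age. There were 5 KO and 5 WT kidneys, and 5 KO and 4 WT livers. Libraries are called by the number in their label. Where the text says mouse and a number, it means the libraries of that number. RNA was selected by poly(A), and no label states that each library of a group is another animal. The p-values therefore rest on library-to-library spread, which may be technical.

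P450 enzymes are haem proteins of the endoplasmic reticulum that oxidise drugs, steroids, fatty acids and other lipids with electrons from the reductase Por. Families 1 to 3 are best known for the clearance of foreign compounds in hepatocytes, and family 4 for the hydroxylation of fatty acids at or near their terminal carbon. In the mouse many of these genes form tandem clusters of close copies, and several differ between males and females in liver or kidney.

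Depth was 25919138 to 35131720 counts in kidneys and 26084473 to 34806035 counts in livers. Levels are library-scaled counts (CPM) after scaling of all 19 libraries by the trimmed mean of M values (TMM). The liver marker Alb had 3.65 to 30.5 CPM in kidneys and 77200 to 103562 CPM in livers, and Umod of the thick ascending limb had 1465 to 2479 CPM in kidneys and at most 0.0413 CPM in livers. H2afy had 36.1, 42.8, 43.1, 40.6 and 44.4 CPM in KO kidneys, against 67.1, 66.4, 61.7, 66.6 and 48.8 CPM in WT kidneys. In livers it had 60.6, 59.6, 72.7, 72.8 and 66.8 CPM in KO, against 121, 109, 103 and 73.8 CPM in WT. The groups did not overlap in either tissue, and the lowest WT value was that of mouse 24 in both. With edgeR's quasi-likelihood test, H2afy was not called (log2 fold change −0.58 and adjusted p = 0.135 in kidney, −0.61 and 0.384 in liver). Without mouse 24 the adjusted p was 0.00679 in kidney and 0.0469 in liver. Counts per gene cover both H2afy isoforms and do not measure the deleted exon.

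2 libraries stood apart in markers of another organ. Of 5 hepatocyte markers, Alb, Apoa1 and Tat were highest of all kidneys in KO kidney 13, with Alb at 30.5 CPM there and 3.65 to 7.01 CPM in the other kidneys, while Ttr and Serpina1a were lowest there. KO kidney 16 held adrenal cortex transcripts, with Star at 65.0 CPM, Cyp21a1 at 42.2 CPM, Hsd3b1 at 39.1 CPM, Cyp11a1 at 24.1 CPM and Cyp11b1 at 19.9 CPM. In the other 9 kidneys Star had 3.09 to 4.95 CPM and the other 4 were near 0.

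Cyp2a4 and Cyp2a5 are a kidney-high and a liver-high gene whose coding sequences are 98.5% identical. The 250 bases before each RefSeq start are shown to let the windows of such a pair be compared. On build GRCm38.p6 they are chr7:26306942-26307191 for Cyp2a4 and chr7:26835089-26835338 for Cyp2a5, both on the plus strand, and capitals mark the 4 bases that differ between the aligned windows, which are 98.4% identical.
Cyp2a4: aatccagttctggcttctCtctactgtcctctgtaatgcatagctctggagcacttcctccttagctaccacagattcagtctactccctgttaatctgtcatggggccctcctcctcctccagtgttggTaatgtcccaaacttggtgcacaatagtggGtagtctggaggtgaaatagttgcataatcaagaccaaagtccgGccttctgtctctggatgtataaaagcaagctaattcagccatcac
Cyp2a5: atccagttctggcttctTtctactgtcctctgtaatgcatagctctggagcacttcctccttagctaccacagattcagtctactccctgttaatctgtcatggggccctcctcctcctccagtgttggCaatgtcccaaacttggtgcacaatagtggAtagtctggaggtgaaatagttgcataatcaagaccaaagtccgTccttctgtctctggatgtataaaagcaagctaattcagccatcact
Both windows hold TATAAA, CAAAGTCC (the core of the motif bound by HNF4A) and GTTAAT (a half-site of HNF1) on the plus strand. Searched on both strands, TATAAA was in the windows of 22 of 56 members with a RefSeq window, or 39.3%, against 12.4% of 32851 windows of all genes. CAAAGTCC was in 10 of 56, or 17.9%, against 1.2%, and GTTAAT in 9 of 56, or 16.1%, against 6.43%. GCGTG, the core of the aryl hydrocarbon receptor element, was in 11 of 56, or 19.6%, against 28.2%. A member counted if any of its windows held the letters, while the share over all genes counts single windows. A member with several windows thus had more chances, and the percentages are not like for like. Members of 1 cluster share sequence, so these are descriptions of the windows.

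Use of P450 genes was concentrated on few members in kidney and spread over more in liver. To compare genes with each other, each level was divided by the length of the gene's exons in kilobases and given as a share of the sum over all 71 members. In kidney 2 members made up 50% of this sum and 9 made up 90%. In liver 4 and 18 members were needed. The 10 leading members held 92.7% of the sum in kidney and 77.4% in liver. The summed length-scaled level was 2711 ± 153 CPM per kb in kidneys (SD, n = 10) and 12233 ± 1058 CPM per kb in livers (SD, n = 9). The size of this gap depends on the scaling, with TMM factors of 1.31 to 1.39 in kidneys and 0.666 to 0.759 in livers. Without TMM or division by length, the members made up 0.842% ± 0.0337 of all counts in kidneys and 2.18% ± 0.111 in livers (SD). In bulk tissue, fewer cells of a type and less RNA per cell cannot be told apart.

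**Figure D1:**
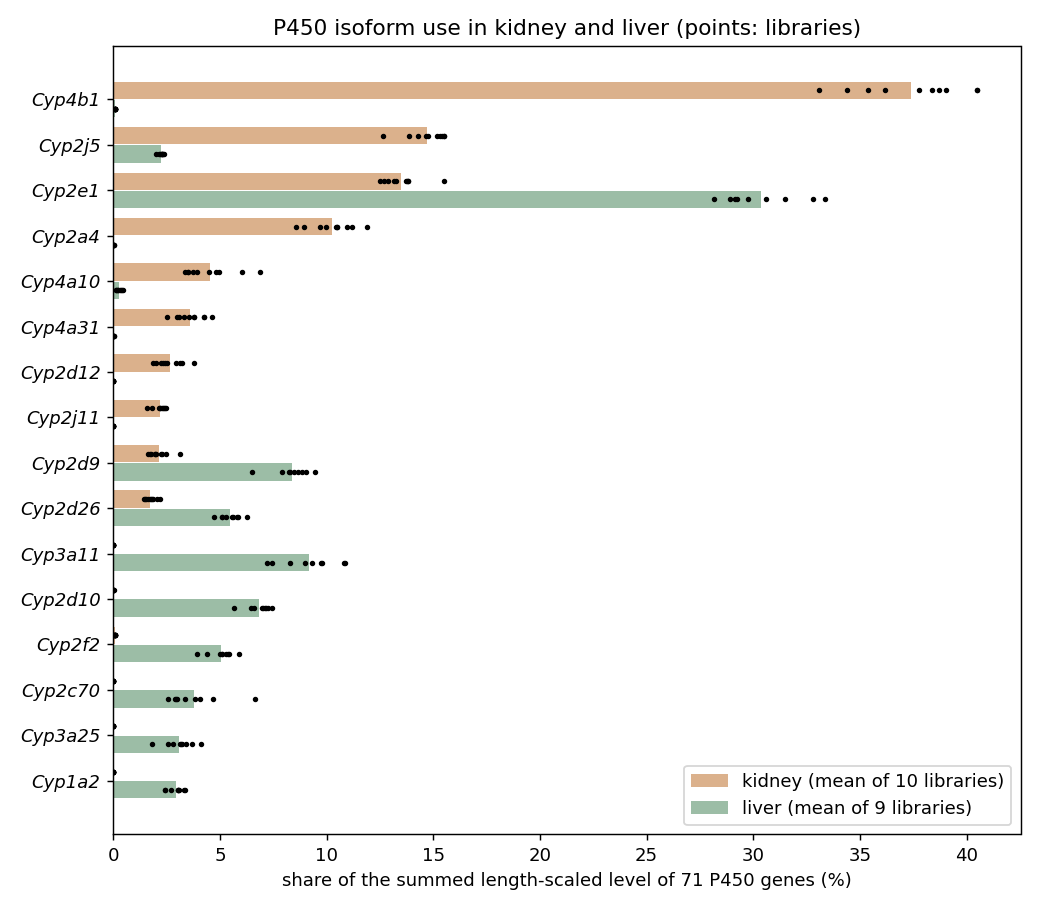
Share of each of 16 leading P450 genes in the summed length-scaled level of all 71 members (x axis, percent), in kidney (upper bar of each pair) and liver (lower bar). Bars are means over 10 kidney and 9 liver libraries and points are single libraries. Cyp4b1 leads in kidney with a mean of 37.4% and Cyp2e1 in liver with a mean of 30.4%.

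Family 4 and the Cyp2j subfamily had larger shares in kidney than in liver. Family 4 held 48.5% ± 1.98 of the sum in kidney (SD, n = 10) and 5.87% ± 0.47 in liver (SD, n = 9). Within it, Cyp4b1, which oxidises fatty acids and some aromatic foreign compounds, led the kidney order with 37.4% ± 2.52 (SD, n = 10) and held 0.0822% ± 0.013 in liver (SD, n = 9). Its level was 1862 to 2622 CPM in kidneys and 18.1 to 28.6 CPM in livers, with no overlap. Cyp4a also had a larger share in kidney (10.4% against 2.02%), while Cyp4f (0.601% against 2.63%) and Cyp4v (0.0428% against 1.14%) had smaller ones. Of 15 family 4 members tested between tissues, 4 were called higher in kidney and 10 lower. Cyp2j held 18.9% ± 1.17 in kidney and 2.5% ± 0.128 in liver, mainly through Cyp2j5, which epoxidises arachidonic acid. Cyp2j5 stood second in kidney with 14.7% ± 0.924 and at rank 10 in liver with 2.23% ± 0.117. With the longest transcript as length it stood at rank 3 in kidney with 13.2%, after Cyp2e1 with 14.2%. Cyp2e1, the ethanol-inducible P450 that also oxidises acetone, held 13.5% ± 0.853 in kidney and 30.4% ± 1.81 in liver.

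The drug-clearing subfamilies had larger shares in liver. Cyp3a held 0.00772% of the sum in kidney and 12.9% ± 1.63 in liver, and Cyp2c held 0.367% ± 0.059 in kidney and 14.6% ± 2.39 in liver. Cyp2d held 6.75% ± 0.975 in kidney and 22.2% ± 1.77 in liver. The liver order of Cyp2d and Cyp3a depends on the length used. With the longest transcript as length Cyp2d held 22.5% and Cyp3a 16.9% in liver, and without division by length Cyp2d held 19.3% and Cyp3a 22.1%. After Cyp2e1 the liver order ran Cyp3a11, Cyp2d9, Cyp2d10, Cyp2d26, Cyp2f2, Cyp2c70, Cyp3a25, Cyp1a2 and Cyp2j5. Per length of all exons Cyp3a11 was higher than Cyp2d9 in 6 of 9 livers, and with the longest transcript as length, or undivided, in 9 of 9. Cyp2c70 and Cyp3a25 (6 of 9) and Cyp3a25 and Cyp1a2 (5 of 9) did not differ beyond their spread. In kidney the order ran Cyp4b1, Cyp2j5, Cyp2e1, Cyp2a4, Cyp4a10, Cyp4a31, Cyp2d12, Cyp2j11, Cyp2d9 and Cyp2d26. With the longest transcript as length Cyp2e1 stood before Cyp2j5 there, and Cyp2d9 stood at rank 7. Ranges overlapped between Cyp2j5 and Cyp2e1 and from Cyp4a10 on down, while Cyp4b1, the pair of Cyp2j5 and Cyp2e1, and Cyp2a4 stood apart from their next neighbour.

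In the fit of both tissues 62 of 71 members passed the filter on low counts, and 58 of the 62 were called at an adjusted p below 0.05, against 81.1% of all 18549 genes tested. Of the members, 13 were higher in kidney and 45 were lower, against 45.5% and 35.5% of all genes. The median log2 fold change, kidney minus liver, was −3.75 over the members and 0.17 over all genes. Called past a log2 fold change of 3 were 9 members higher and 34 lower, against 13.4% higher and 5.78% lower of all genes. Scaling by library totals in place of TMM moved the median of all genes by 0.90, to 1.07, and gave 18 members higher and 41 lower. Under it Cyp2j9, Cyp4f18 and Cyp1a1 changed direction. All 3 are counted among the 45 lower in kidney under TMM, and Cyp4f18 also among the 10 of family 4. Their direction thus depends on the scaling.

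**Figure D2:**
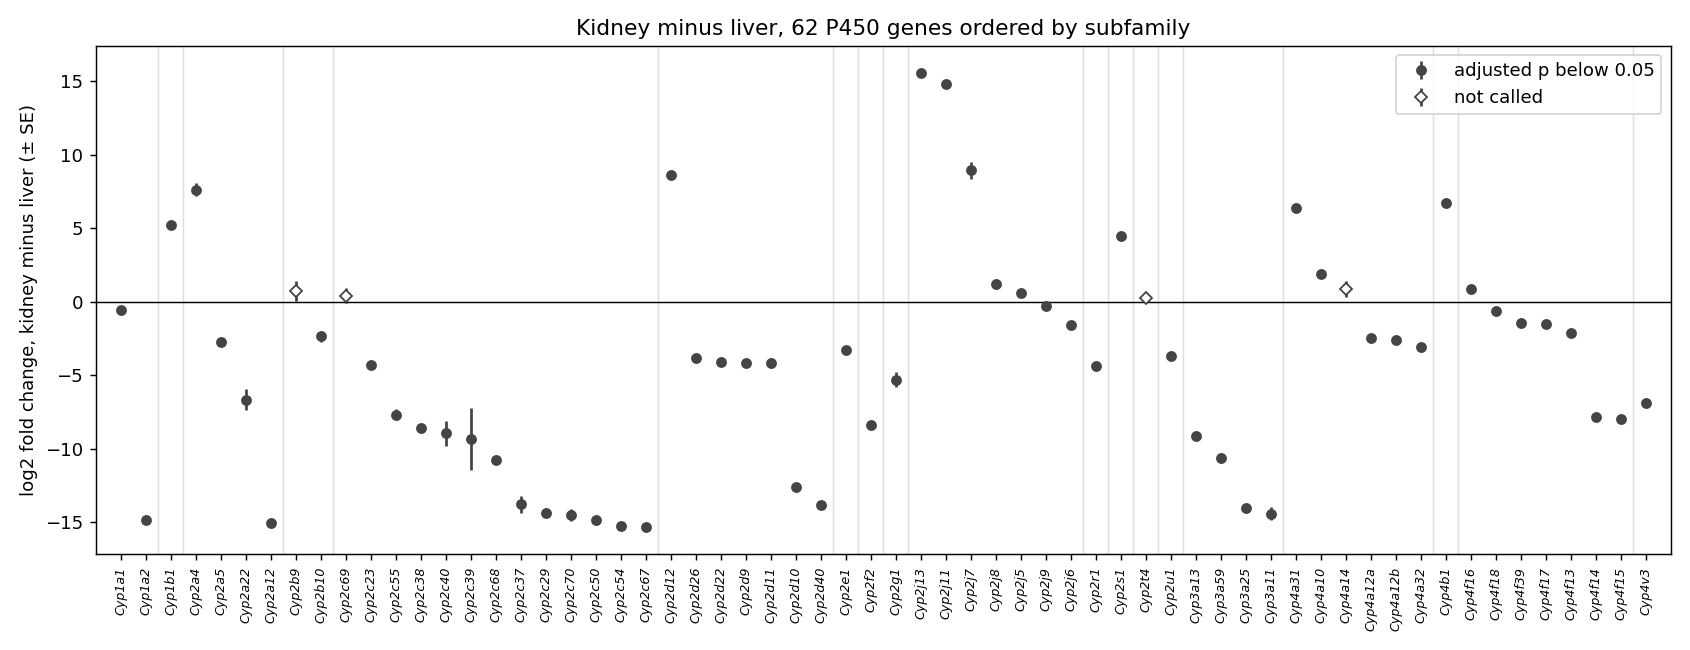
Log2 fold change, kidney minus liver, with its SE (y axis) for the 62 members tested, ordered by subfamily along the x axis. Filled circles passed the adjusted p of 0.05 and open diamonds did not. 13 members lie above 0 among those called and 45 below it.

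The members called higher in kidney included 5 of 7 Cyp2j genes tested. Cyp2j13 had 148 to 246 CPM in kidneys and 0 counts in all livers, which made it at least 12529-fold higher in kidney when 3 counts over the 9 livers are taken as the floor. Cyp2j11 had 78.5 to 130 CPM in kidneys and also 0 counts in livers, at least 7672-fold higher. Cyp2j7 was low in kidneys, at 1.10 to 3.19 CPM, and at 0 in livers, at least 129-fold higher. Cyp2j6 was the opposite case in this cluster, with 28.6 to 35.4 CPM in kidneys and 83.4 to 112 CPM in livers (log2 fold change −1.56 ± 0.06 SE, edgeR adjusted p = 1.16e-16).

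Close copies were used in opposite ways in the Cyp2a, Cyp4a and Cyp2d clusters. Cyp2a4, a steroid 15-alpha-hydroxylase, had 398 to 528 CPM in kidneys and 0.427 to 11.2 CPM in livers (log2 fold change 7.61 ± 0.45 SE, edgeR adjusted p = 4.21e-11). Its copy Cyp2a5, a coumarin 7-hydroxylase, had 48.3 to 95.01 CPM in kidneys and 304 to 792 CPM in livers (−2.78 ± 0.17, adjusted p = 1.49e-12). Only 13.2% of the 100-base windows of each coding sequence are found in the other.

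In the Cyp4a cluster, whose enzymes hydroxylate fatty acids, Cyp4a31 had 180 to 327 CPM in kidneys and 1.07 to 5.54 CPM in livers (log2 fold change 6.33 ± 0.21 SE, edgeR adjusted p = 5.61e-17). Cyp4a10 had 201 to 405 CPM in kidneys and 30.6 to 133 CPM in livers (1.85 ± 0.26, adjusted p = 4.58e-06). Cyp4a32, 96.0% identical to Cyp4a31 in coding sequence and 97.2% to Cyp4a10, had 1.89 to 6.36 CPM in kidneys and 14.9 to 72.5 CPM in livers (−3.12 ± 0.30, adjusted p = 3.21e-08). Cyp4a14 overlapped between tissues and was not called (0.88 ± 0.55, adjusted p = 0.148).

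Cyp2d12 had 192 to 369 CPM in kidneys and 0.441 to 1.08 CPM in livers (log2 fold change 8.59 ± 0.17 SE, edgeR adjusted p = 1.08e-22). Its neighbours Cyp2d9, a male-biased steroid 16-alpha-hydroxylase, Cyp2d10 and Cyp2d26 were lower in kidney. Cyp2d10 had 0.0267 to 0.606 CPM in kidneys and 1259 to 1425 CPM in livers. Cyp1b1, which hydroxylates oestrogens and is not tied to hepatocytes, had 22.8 to 50.8 CPM in kidneys and 0.235 to 1.51 CPM in livers (5.20 ± 0.26, adjusted p = 2.69e-13).

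Of 13 Cyp2c members tested 12 were lower in kidney, none was higher and Cyp2c69 was not called. All 4 tested Cyp3a members were lower in kidney. Cyp3a11, the main liver member of the drug-clearing subfamily, had 0 to 1.37 CPM in kidneys, against 4570 to 6517 CPM in livers. Cyp1a2, which oxidises caffeine and arylamines, had at most 0.186 CPM in kidneys and 581 to 871 CPM in livers. Over 10 kidneys Cyp2c54 had 1 count, Cyp2c67 had 5, Cyp2c50 had 7 and Cyp2a12 had 15, against 171 CPM or more of each in every liver. Cyp2c70, a bile acid hydroxylase that makes muricholic acid in mice, had 18 counts over 10 kidneys and 608 to 1915 CPM in livers, and Cyp2c29 had 16 counts and 584 to 1198 CPM.

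The kidney levels of such genes were highest in 1 library. Of 13 members whose kidney median was under 0.1% of a liver level over 100 CPM, all 13 were highest in KO kidney 13. They stood there at 0.00991% to 0.103% of their mean liver level, with a median of 0.0276%. Of the hepatocyte markers, Alb stood there at 0.0352% of its liver mean, Ttr at 0.412%, against 0.419% to 0.822% in the other 9 kidneys, and Serpina1a at 0.269%, against 0.334% to 0.97%. Among the 13 members the highest value in the other 9 kidneys was 0.0847%, that of Cyp2c68 in WT kidney 19. Apoa1 stood in KO kidney 13 at 0.0208% of its liver mean, against at most 0.00761% in the other 9 kidneys, and Tat at 0.053%, against at most 0.00829%. Ttr and Serpina1a lay in every kidney above the percentages of the 13 members. The part of liver transcripts in these values was not tested. Without mice 13 and 16 the fit of both tissues called 57 members, 13 higher and 44 lower.

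**Figure D3:**
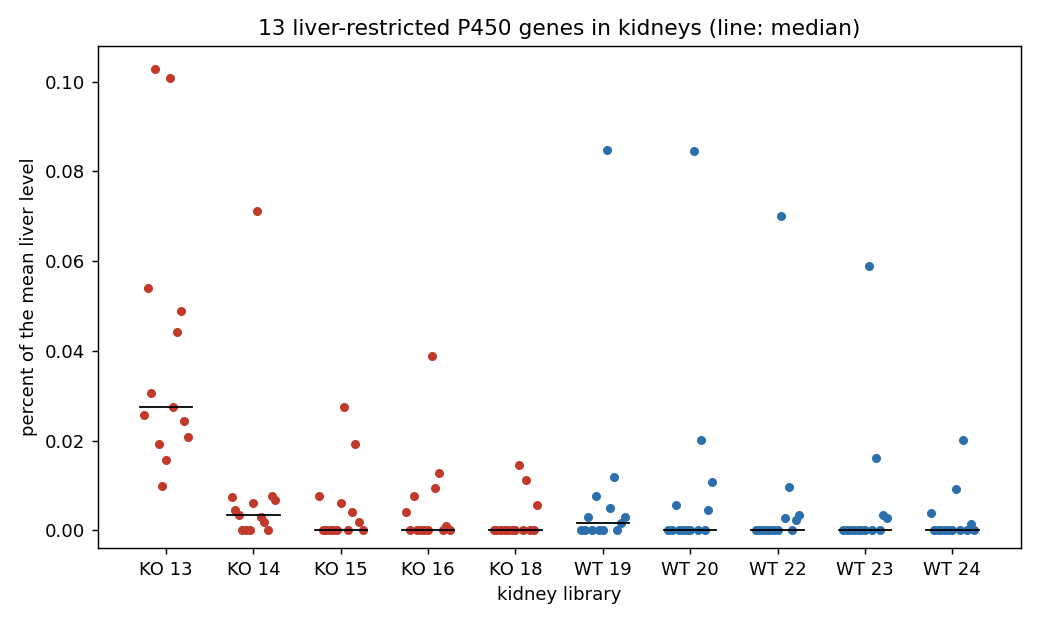
Level of 13 liver-restricted P450 genes in each of 10 kidney libraries, as percent of their mean level in livers (y axis), with KO kidneys to the left (red) and WT kidneys to the right (blue). Points are genes and lines are medians. The median of KO kidney 13 is 0.0276%.

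In kidney no P450 gene was called between KO and WT. With edgeR's quasi-likelihood test 0 of 40 members tested passed an adjusted p of 0.05, against 0.00579% of 17269 genes, and 0 had an unadjusted p below 0.05, against 2.95%. DESeq2 and limma voom also called 0 members. The median log2 fold change was −0.02 over the members and 0.01 over all genes, with 17 members above 0 and 23 below. The 95% interval lay within a 2-fold change in either direction for 35 of 40. No member had groups that did not overlap, against 0.544% of all genes.

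The leading kidney genes differed between genotypes by less than their spread. Cyp4b1 had 2289, 2338, 2394, 2427 and 1977 CPM in KO kidneys, against 2622, 2335, 2479, 1862 and 2169 CPM in WT kidneys. Cyp2j5 had 1015, 831, 942, 981 and 733 CPM in KO kidneys, against 1045, 952, 958, 906 and 1004 CPM in WT kidneys (log2 fold change −0.11 ± 0.10 SE, edgeR adjusted p = 0.999). Cyp2a4 averaged 475 ± 61.7 CPM in KO kidneys and 491 ± 31.9 CPM in WT kidneys (SD, n = 5 each). The groups overlapped for each of the 3.

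The smallest unadjusted p in kidney was that of Cyp2j11, with 130, 78.5, 114, 118 and 86.2 CPM in KO, against 127, 122, 120, 119 and 125 CPM in WT. KO kidneys 14 and 18 were the low ones, and its log2 fold change was −0.21 ± 0.12 SE with an adjusted p of 0.999 by edgeR. Cyp2c23 followed, an arachidonic acid epoxygenase that stood higher in livers, at 297 to 445 CPM. In kidneys it had 17.1, 20.0, 22.2, 12.5 and 19.4 CPM in KO and 23.2, 24.2, 22.3, 18.3 and 20.0 CPM in WT. Its groups overlapped, and its fold change was −0.24 ± 0.13 SE. The next 8 were Cyp4f39, Cyp4a12b, Cyp2b9, Cyp2d12, Cyp2j5, Cyp3a13, Cyp2t4 and Cyp4a32, with log2 fold changes between −0.77 (Cyp4f39) and 0.55 (Cyp2b9), and all had an adjusted p of 0.999 by edgeR. Cyp4f39, Cyp2b9, Cyp3a13 and Cyp2t4 were under 1 CPM in all kidneys.

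In liver no P450 gene was called between KO and WT either. By edgeR 0 of 56 members tested passed, against 0% of 14591 genes, and DESeq2 and limma voom called 0 members. An unadjusted p below 0.05 was found for 5 members, or 8.93%, against 4.17% of all genes. Fold changes were above 0 for 40 members and below 0 for 16, which is 71.4% above 0 against 51.3% of all genes, with a median of 0.07. No member had groups that did not overlap, against 1.62% of all genes (0.747% higher and 0.87% lower). The 95% interval lay within a 2-fold change for 39 of 56.

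**Figure D4:**
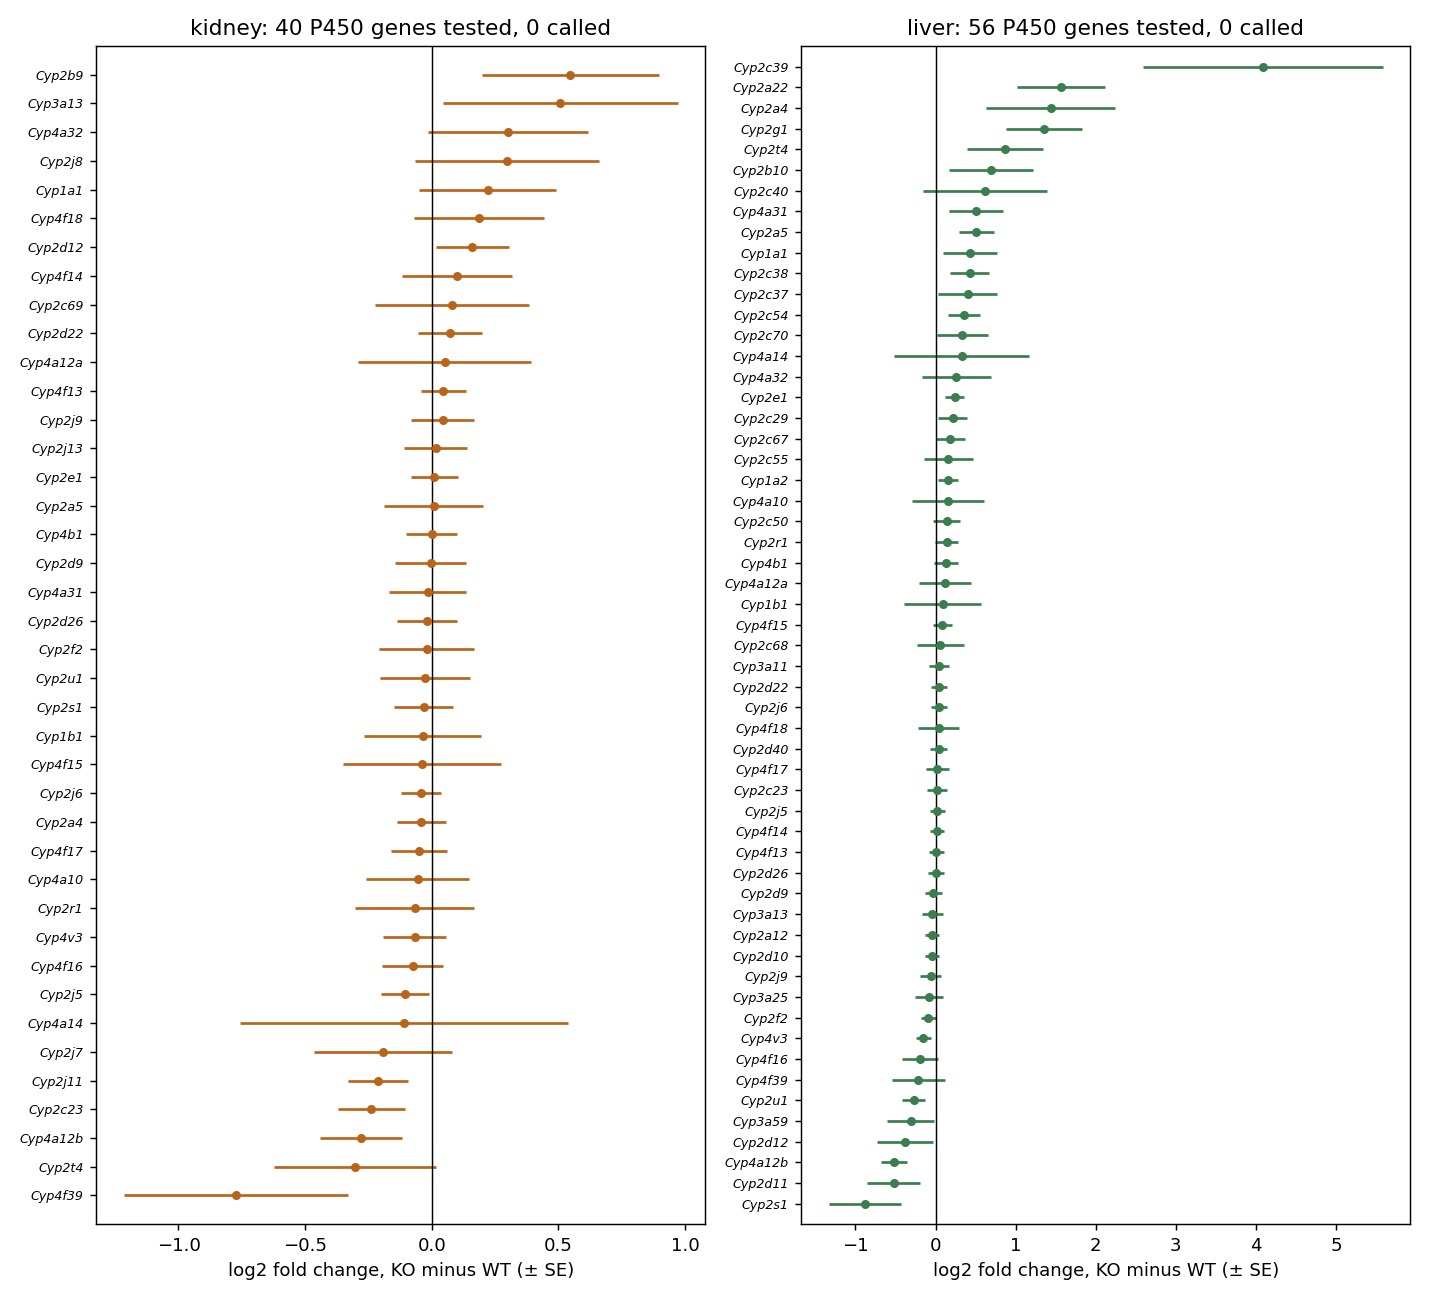
Log2 fold change, KO minus WT, with its SE (x axis) for the 40 members tested in kidney (left) and the 56 tested in liver (right), ordered by fold change. No member passed the adjusted p of 0.05. Cyp2c39 stands at 4.09 in liver.

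Within the liver, the 12 tested Cyp2c members were all above 0, with a median log2 fold change of 0.28 and 0 called. Without mouse 18, 9 of the 12 were above 0, with a median of 0.06, and 33 of 54 members in all. Of the 7 Cyp2d members 3 were above 0 and 4 below, and of the 4 Cyp3a members 1 was above 0 and 3 below. Cyp2e1 had 9110, 6851, 8541, 8201 and 10435 CPM in KO livers, against 7458, 7755, 7277 and 6858 CPM in WT livers (log2 fold change 0.24 ± 0.12 SE, edgeR adjusted p = 0.9998). KO livers 13 and 18 were the highest, and KO liver 14 was the lowest of all 9.

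The smallest p in liver was that of Cyp4a12b, a male-biased fatty acid hydroxylase, with 62.1, 60.8, 53.6, 73.5 and 38.9 CPM in KO, against 86.1, 97.4, 81.2 and 68.0 CPM in WT. KO liver 16 lay above WT liver 24, so the groups overlapped, and the log2 fold change was −0.52 ± 0.16 SE with an adjusted p of 0.934 by edgeR. Its copy Cyp4a12a, 98.5% identical in coding sequence, shares 41.5% of its 100-base windows with it, and the counting may have split such reads between the pair. Cyp4a12a had 190, 375, 327, 239 and 681 CPM in KO livers, against 275, 395, 320 and 349 CPM in WT livers.

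Cyp2a5 had 470, 304, 626, 611 and 792 CPM in KO livers, against 442, 417, 349 and 370 CPM in WT livers (log2 fold change 0.51 ± 0.22 SE, edgeR adjusted p = 0.9998). 4 KO livers were above all WT livers and KO liver 14 was below them. Cyp2a22 and Cyp2g1 had fold changes of 1.57 ± 0.55 and 1.35 ± 0.48 on the log2 scale at levels of at most 1.22 and 1.94 CPM. Cyp2u1, Cyp2e1, Cyp2s1, Cyp2t4 and Cyp2c54 completed the 10 smallest p, with fold changes between −0.88 (Cyp2s1) and 0.87 (Cyp2t4). Cyp2t4 had at most 0.761 CPM in livers.

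Cyp2c39, a member of the Cyp2c cluster described as female-biased in mouse liver, was high in 2 KO livers. It had 0.868, 30.4, 0.646, 19.1 and 0.735 CPM in KO livers 13, 14, 15, 16 and 18, against 0.580, 0.798, 0.418 and 0.640 CPM in WT livers, from 678 counts in KO liver 14 and 421 in KO liver 16, against 10 to 21 in each of the other 7. It had 0 counts in all 10 kidneys. Its log2 fold change in liver was 4.09 ± 1.495 SE with an adjusted p of 0.9998 by edgeR, and 0.30 ± 0.39 without mice 14 and 16 (adjusted p = 0.998). Its closest copy in coding sequence, Cyp2c38 at 94.2%, shares no 100-base window with it and had 17.9 and 16.4 CPM in those KO livers, against 10.0 to 29.4 CPM in the other livers.

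Other members described as female-biased had their highest value in other libraries or at few counts. Cyp3a44 had 0.0413, 0.269, 0.0808, 0.136 and 0.098 CPM in KO livers, against 0.041, 0.047, 0 and 0.16 CPM in WT livers, and its highest, in KO liver 14, rested on 6 counts. Cyp2a4 had 1.12, 0.717, 4.77, 2.58 and 11.2 CPM in KO livers, against 2.03, 2.39, 1.09 and 0.427 CPM in WT livers. Cyp2c40 had 1.32, 1.43, 1.21, 3.85 and 10.4 CPM in KO livers, against 0.745, 5.12, 1.97 and 1.65 CPM in WT livers. Cyp2b9 had 0, 0.0448, 0.242, 0.0453 and 1.91 CPM in KO livers, against 0, 0.516, 0 and 0.0534 CPM in WT livers. For Cyp2a4, Cyp2c40 and Cyp2b9 the highest library was KO liver 18, and Cyp2c40 was second among KO livers in KO liver 16. Of the 100-base coding windows of Cyp2c40, 50.2% are found in other members, and the counting may have split such reads. Its copy Cyp2c68, 98.1% identical in coding sequence, was also highest in KO liver 18, at 531 CPM. The part of such reads in these values was not tested.

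**Figure D5:**
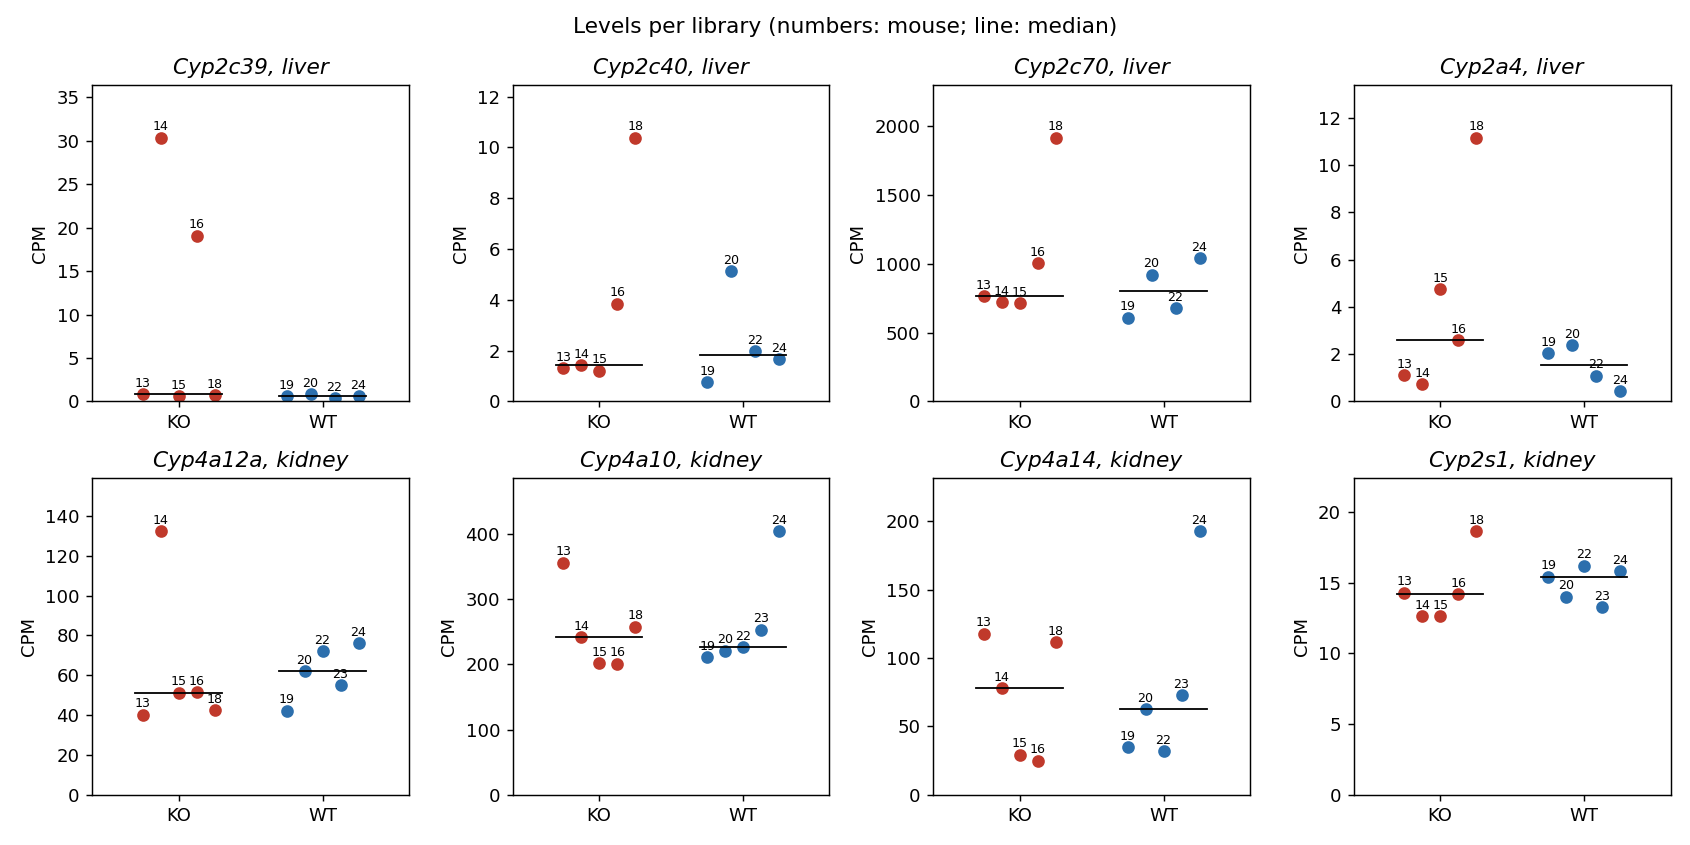
Level in CPM (y axis, linear, from 0) of 4 members in livers (upper row) and 4 in kidneys (lower row), KO to the left and WT to the right. Points are libraries with the number of the mouse and lines are medians. Cyp2c39 reaches 30.4 and 19.1 CPM in KO livers 14 and 16, and Cyp2c40, Cyp2c70 and Cyp2a4 are highest in KO liver 18.

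KO liver 18 was the highest of the 5 KO livers for 25 of 56 members and the lowest for 14. It had the smallest TMM factor of all libraries, 0.666, and with scaling by library totals it was the highest for 17 and the lowest for 20. Among WT livers, WT liver 20 was the highest for 23 members and WT liver 24 the lowest for 23, with either scaling. Alas1, the first enzyme of haem synthesis, had 1276 CPM in KO liver 18, against 231 to 480 CPM in the other KO livers and 39.2 to 460 CPM in WT livers. Cyp2c70 had 1915 CPM in KO liver 18, against 716 to 1004 CPM in the other KO livers and 608 to 1041 CPM in WT livers. The part of these in the P450 values was not tested.

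The PPARA-responsive genes Cyp4a10 and Cyp4a14 varied widely within groups of kidneys. Cyp4a14 had 118, 78.2, 29.3, 24.95 and 112 CPM in KO kidneys, against 34.9, 62.6, 32.1, 72.9 and 193 CPM in WT kidneys. Cyp4a10 had 356, 241, 201, 201 and 258 CPM in KO kidneys, against 211, 221, 227, 253 and 405 CPM in WT kidneys. WT kidney 24 was the highest of all kidneys for both, KO kidney 13 was second for both, and KO kidneys 15 and 16 were the lowest. Pdk4, another PPARA target, had 81.9, 39.7, 27.5, 42.8 and 28.3 CPM in KO kidneys, against 15.5, 15.9, 28.3, 48.8 and 42.4 CPM in WT kidneys. Since diet was not assigned to a mouse, its part was not tested.

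The difference between the KO effects in liver and in kidney was tested in 1 fit of all libraries. By edgeR 0 of 62 members passed, against 0% of 18549 genes, and 6 had an unadjusted p below 0.05, against 4.12% of all genes. DESeq2 and limma voom called 0 members. The 5 smallest p were those of Cyp1a2, Cyp2a12, Cyp2d40, Cyp2s1 and Cyp2j8. For Cyp1a2 the difference was −2.86 ± 0.92 SE on the log2 scale, Cyp2a12 had −4.40 ± 1.52 and Cyp2d40 had −2.60 ± 1.02. All 3 are among the 13 liver-restricted genes that were highest in KO kidney 13, where they had 0.186, 0.326 and 0.0699 CPM. Over all 10 kidneys they had only 14, 15 and 4 counts. With 1 mouse left out the difference ran for Cyp1a2 between −4.07 and −1.97. For Cyp2a12 it ran between −4.77 and −1.46, and for Cyp2d40 between −2.96 and −1.35. Cyp2s1, at −0.86 ± 0.37, and Cyp2j8, at −1.43 ± 0.68, are low in liver, at most 1.32 and 0.455 CPM.

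Genes around the P450 system gave no called member between KO and WT in kidney or in liver by edgeR. The 9 partners of P450 enzymes, among them the reductase Por and cytochrome b5, had a median log2 fold change of 0.00 in kidney and 0.08 in liver, against 0.01 and 0.00 over all genes. Of 16 receptors and regulators tested, which include Ahr, Nr1i2, Nr1i3, Ppara and Hnf4a, 11 were above 0 in kidney and 5 in liver. PPARA targets outside the P450 families had 2 of 11 above 0 in kidney and 8 of 11 in liver. Among 8 pericentral liver genes tested in kidney and 9 in liver, 3 and 7 were above 0. Among 4 periportal liver genes tested in kidney and 8 in liver, 2 and 4 were above 0. The 4 tested P450 genes listed as female-biased were all above 0 in liver, with a median of 1.03, and each had its highest value in KO liver 14 or 18. Of the 4 listed as male-biased, 1 was above 0 in liver, with a median of −0.15. Outside families 1 to 4, 3 of 5 tested female-biased genes were above 0 in liver and 2 below, with a median of 0.05. Of 10 male-biased genes outside these families, 3 were above 0 and 7 below, with a median of −0.12.

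P450 genes outside families 1 to 4 showed the same absence of calls. The smallest p in kidney among all listed genes other than H2afy was that of Cyp51, the lanosterol demethylase of cholesterol synthesis (log2 fold change −0.48 ± 0.12 SE, edgeR adjusted p = 0.813). In liver Ckm, a skeletal muscle marker, had 2.90 ± 0.82 (adjusted p = 0.766), and all 4 skeletal muscle markers were above 0 in KO livers without being called. Hepatocyte markers were above 0 in KO kidneys for 4 of 4 tested, with KO kidney 13 highest for Alb and Apoa1 and lowest for Ttr and Serpina1a.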

How the data were processed

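The authors' deposited table holds raw counts per gene for 26506 genes in 19 libraries, with no normalization. Per the submitters' processing notes, the build was GRCm38 and the tools were STAR, featureCounts, Trim Galore and DESeq2, without versions. No source used here gives the strand setting, and reads of close copies may be split between them. Of the identifiers, 26417 matched GENCODE M21 without their version and 89 did not. The liver of WT mouse 23 was not analysed here.

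Tests were edgeR 4.0.16 quasi-likelihood fits (robust, TMM, filterByExpr at a minimum count of 10) in R 4.3.3 over all genes, two-sided, with Benjamini-Hochberg adjustment and a threshold of 0.05. Each tissue was fitted alone, and tissue contrasts over all libraries. Alternatives used DESeq2 1.42.0, limma 3.58.1 voom, other scalings and filters, and left-out mice. The fits were tested on simulated counts. Levels rest on 18.7 to 47.3 counts per CPM. A floor is 3 counts over a tissue and covers counting error only.

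Genes were named by rank of level, of tissue fold change and of p, by Dixon's criterion and by copies of 95% or more. The rule asked for protein identity; coding bases were used, with 16 pairs at that level. Cyp2j6, Cyp4a14 between tissues, Pdk4, Alas1 and Ckm were named after their values were seen. Members, lists and tests were chosen with earlier results of these data known.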

Additional observations from a re-analysis of the deposited data

Results flagged for a closer look

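Dixon's criterion was applied to CPM in each group of 4 or 5 libraries, for each P450 member that passed the filter on low counts in that tissue. It marked 12 of 192 member and group pairs, or 6.25%. Chance marks about 1 in 20 where values are normally distributed, which was not tested here. In KO kidneys it marked Cyp2s1 in mouse 18 (18.7 CPM, others 12.6 to 14.3 CPM) and Cyp4a12a in mouse 14 (133 CPM, others 40.3 to 51.5 CPM). In WT kidneys it marked Cyp2u1 (6.86 CPM, others 5.16 to 5.25 CPM), Cyp4a10 (405 CPM, others 211 to 253 CPM) and Cyp4a14 (193 CPM, others 32.1 to 72.9 CPM), all in mouse 24, and a low value of Cyp2j6 in mouse 23 (31.8 CPM, others 34.5 to 35.4 CPM).

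In KO livers it marked Cyp2c40 (10.4 CPM, others 1.21 to 3.85 CPM) and Cyp2c70 (1915 CPM, others 716 to 1004 CPM) in mouse 18, and Cyp4f18 in mouse 15 (3.19 CPM, others 1.496 to 1.93 CPM). In WT livers it marked Cyp2d9 in mouse 19 (2973 CPM, others 2644 to 2682 CPM), a low value of Cyp2a12 in mouse 19 (580 CPM, others 625 to 629 CPM) and a low value of Cyp2c23 in mouse 24 (297 CPM, others 417 to 428 CPM). Cyp2c39 in KO livers was not marked, since 2 of its 5 values were high, but its highest library stood at 35 times the median of its group.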

How the results depend on the processing

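No P450 member was called for KO against WT in either tissue, or for the difference of the effects, under any alternative run, and kidney against liver called 52 to 64 members. Counts over all genes were less stable. In kidney 1 gene was called, against 3 in 1 fit of all libraries, 15 with DESeq2, 7 with limma voom, 4 with no filter and 1 to 10 with 1 mouse left out. In liver 0 were called, against 21, 42, 5, 3 and 0 to 7. For the difference 0 were called, against 11 with DESeq2, 1 with limma voom and 0 to 3 with 1 mouse left out. 3 sets of mice were left out after the data had been seen. Without mice 16 and 24 the calls were 12 in kidney, 11 in liver and 4 for the difference. The set of mice 13 and 16 was added after those results were known and gave 11 in kidney and 4 for the difference. Without mice 14 and 16 the liver gave 6. The causes were not tested. The share of Cyp2e1 in liver was 26.4% without division by length.

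Several fold changes near 0 changed sign, none of them called. In kidney these were Cyp2d26 (0.00834 with library totals), Cyp2d9 (0.0196 with totals, 0.0155 without mice 16 and 24, 0.0882 without 13 and 16), Cyp2e1 (−0.0734 and −0.104 without those sets), Cyp4a10 (0.225 without 16 and 24), Cyp4a31 (0.00338 with totals, 0.0456 without 16 and 24), Cyp4a32 (−0.139 without 13 and 16) and Cyp4b1 (−0.00113 with DESeq2, −0.00113 with size factors, −0.00709 with no filter, −0.00545 in 1 fit, −0.0394 and −0.0365 without the sets). In liver Cyp2d26 stood at −0.00718 with limma voom, −0.00342 with totals and −0.0794 without mice 16 and 24. With 1 mouse left out, fold changes in kidney ran for Cyp2a4 between −0.0777 and 0.0168, Cyp2d26 between −0.0904 and 0.0671, Cyp2d9 between −0.154 and 0.0712, Cyp2e1 between −0.0674 and 0.0563, Cyp4a10 between −0.219 and 0.153, Cyp4a31 between −0.152 and 0.0576, Cyp4b1 between −0.0668 and 0.0566. In liver they ran for Cyp2c70 between −0.00996 and 0.479, Cyp2d26 between −0.0605 and 0.052, Cyp2d9 between −0.0696 and 0.0112, Cyp2j5 between −0.0219 and 0.0511, Cyp3a11 between −0.0402 and 0.128, Cyp3a25 between −0.2004 and 0.0372.

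The labels number kidneys and livers alike without saying that a number is an animal. Over 9 pairs of equal number, deviations from group means correlated at 0.0493 to 0.311, with 7 above 0.1, and 6 kidneys correlated best with their own number. With the number as a replicate block, 57 members and 14965 genes were called between tissues and 0 genes for the difference. Depth limits members near 1 CPM, which rest on 18.7 to 47.3 counts.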
